A study of Mus musculus with 2 samples.

Results

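Gray zone gate cells are defined here as germinal center B cells in which RNA of both zone genes was caught: at least 1 unique molecular identifier (UMI, the tag that marks 1 captured RNA molecule) of Cxcr4 and at least 1 of Cd83. They numbered 2382 of the 8069 cells kept in all (29.5%), 1389 of 4839 in library 1 (28.7%) and 993 of 3230 in library 2 (30.7%). They were compared with the dark zone gate, cells with Cxcr4 and no Cd83 UMI (1279 and 799 cells), and with the light zone gate, cells with Cd83 and no Cxcr4 UMI (1320 and 941 cells). The remaining 851 and 497 cells had neither and entered no comparison. The members were thus chosen by measured values, the raw counts of Cxcr4 and Cd83. Barcodes entered the gates with 500 or more genes detected, 3000 or more UMIs and a mitochondrial share of up to 20%.

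All cells were splenic germinal center B cells of C57BL/6J mice aged 8 weeks, sorted after immunization with sheep red blood cells and read as 2 droplet 3′ RNA libraries. No other treatment, genotype or strain was labelled, so both libraries belong to 1 group and the comparisons are between classes of cells within them. Whether separate animals gave the 2 libraries is not labelled, and the p-values therefore measure only how the class differences disagree between these 2 libraries, which may be technical. The libraries held 75121538 and 61874342 UMIs in 8765 and 7868 barcodes. The 2 libraries shared 22 barcodes, 6 of them among the kept cells and 0 among gray zone gate cells.

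Germinal center B cells cycle between a dark zone, where they divide and mutate their antibody genes, and a light zone, where they take up antigen from follicular dendritic cells and compete for help from T cells. Cells selected in the light zone switch on growth genes and return to the dark zone to divide. The chemokine receptor CXCR4 holds cells in the dark zone, CD83 is a surface protein of light zone cells, and cells that carry both have been called gray zone cells and linked to the passage between zones and to mitosis. In these data the gate reads RNA and not protein, and a cell with 0 UMIs of a gene may still express it.

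The values that chose the members are given as a description. Cells with exactly 1 UMI of Cxcr4, the nearest to the light zone gate, numbered 653 (47.0%) and 468 (47.1%), and cells with exactly 1 of Cd83, the nearest to the dark zone gate, 606 (43.6%) and 445 (44.8%). In library 1, 277 of 1389 gray zone gate cells (19.9%) had exactly 1 UMI of each gate gene and 407 (29.3%) had at least 2 of each; in library 2 these were 205 (20.6%) and 285 (28.7%) of 993. Membership rose with depth: the gray zone gate took 16.2% and 14.4% of kept cells with 3000 to 6000 UMIs, and 51.7% and 53.3% of those with at least 24000. After random thinning of every cell to 3000 UMIs, 321 (23.1%) and 225 (22.7%) of the gray zone gate cells still had both genes. At that common depth Cd83 was found in 25.7% and 27.2% of cells with Cxcr4 and in 34.9% and 36.6% of cells without it. The gate thus depended on how deeply a cell was read, and gray zone gate cells had median depths of 12002 and 12727 UMIs against 8931 and 8903 in the dark and 7697.5 and 8241 in the light zone gate.

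The 3 gates were therefore matched on total UMIs within each library, which kept 962 and 661 cells of each gate and left out 427 and 332 gray zone gate cells. Matched median depths were 9161 and 9563 UMIs in the gray, 9258 and 9582 in the dark and 9202 and 9489 in the light zone gate. All results below use the matched cells, and Cxcr4 and Cd83 are left out of them. Counts were summed per gate and library, and levels of genes are given in CPM, a count scaled to the total of its sum after edgeR's TMM correction, with library 1 first and library 2 second. Median mitochondrial shares still differed, at 13.4% and 12.9% in the gray, 13.9% and 13.9% in the dark and 12.2% and 11.5% in the light zone gate. Median doublet scores were 0.0691 and 0.0637 in the gray, 0.0557 and 0.0544 in the dark and 0.0647 and 0.0637 in the light zone gate.

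The cells carried the markers of their germinal center label in every gate. All 12 germinal center markers had counts in all 3 gates of both libraries, and their summed level, in CPM of plain total counts here and for the other marker lists, was 5846 and 5742 CPM in the gray, 5524 and 5562 in the dark and 5352 and 5137 in the light zone gate. Markers of naive and resting B cells were less abundant but differed between gates: their sum was 102 and 106 CPM in the gray, 65.6 and 73.0 in the dark and 90.7 and 101 in the light zone gate. Cells with at least 3 of these 6 markers made up 3.85% and 4.84% of gray, 1.35% and 2.27% of dark and 3.12% and 3.93% of light zone gate cells. Of 6 T cell markers, 4 had counts and Cd3e and Cd8a were at 0 in all gates. Their summed level was 1.25 and 2.27 CPM in the gray, 0.446 and 1.08 in the dark and 2.5 and 2.99 in the light zone gate. In gray and light most of it came from Trac, the T cell receptor alpha constant gene. Trac had 9 and 16 counts in gray, 1 and 4 in dark and 25 and 22 in light. In dark the T cell marker Cd3d had 3 and 4 counts. The part of T cell RNA in the results was not tested. The macrophage complement gene C1qa had 1 and 0 counts in the gray, 0 and 2 in the dark and 66 and 16 in the light zone gate. The macrophage gene Lyz2 had 62 counts in the gray zone gate of library 1 and 0 in that of library 2.

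Among 10650 genes tested, 883 differed between the gray and the dark zone gate, 541 higher and 342 lower in gray (8.29% called, 5.08% higher and 3.21% lower). Against the light zone gate 2572 differed, 1179 higher and 1393 lower in gray (24.2% called, 11.1% higher and 13.1% lower). Both counts are of edgeR quasi-likelihood tests at an adjusted p under 0.05, with the library as a block, and log2 fold changes below are given ± SE with these adjusted p-values. The SE was derived from the test, as the absolute log2 fold change over the square root of its F statistic. It is not a spread over libraries. The fit without that block called 9 and 26 genes, so nearly all calls rest on setting gates against each other within a library. The median log2 fold change over all genes tested was −0.004 against dark and −0.0002 against light, and list medians below are read beside these. List counts below are likewise read beside the shares called over all genes tested. The gray level lay between those of the other gates in both libraries for 3200 genes (30.0%), above both for 1000 (9.39%) and below both for 1043 (9.79%). The 2 comparisons share the gray zone gate sums, so their values are given side by side and not as independent evidence.

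**Figure D1:**
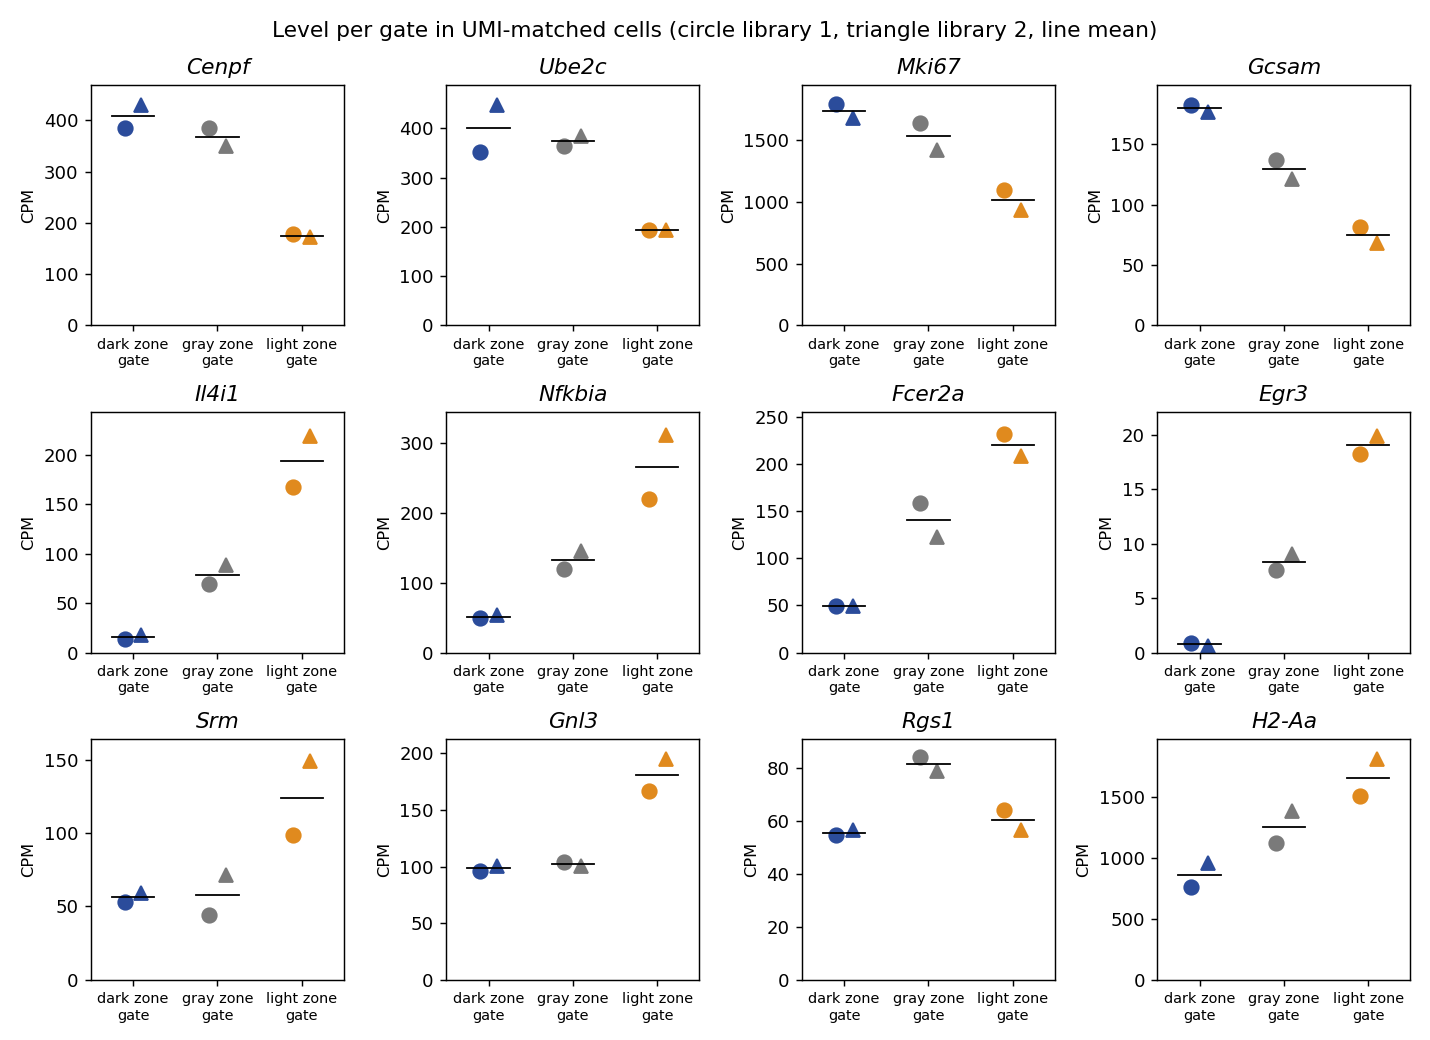
Levels of 12 genes in CPM (scaled counts, linear axis from 0) in the dark, gray and light zone gate. Circles are library 1, triangles library 2 and lines the mean of both. Gray sits beside dark for the mitotic genes Cenpf and Ube2c and for the growth genes Srm and Gnl3, between the other gates for Il4i1, Nfkbia, Fcer2a, Egr3 and H2-Aa, and above both for Rgs1.

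Mitotic genes were close to the dark zone gate level in gray zone gate cells and well above the light zone gate level. Of 52 genes of the G2/M phase list, 51 were higher in gray than in light and 0 lower, with a median log2 fold change of 0.59; against dark, 0 were higher and 16 lower, with a median of −0.15. Cenpf, a kinetochore protein (chr1:189640606-189688086, minus strand, GRCm38), stood at 385 and 349 CPM in the gray, 386 and 429.5 in the dark and 179 and 172 in the light zone gate. Gray lay just below dark in library 1 and further below it in library 2, a difference that did not pass the test. Gray was 2.09-fold above light: the log2 fold change was 1.07 ± 0.05, adjusted p = 2.56e-12 against light and −0.15 ± 0.05, adjusted p = 0.0763 against dark. Ube2c, the ubiquitin-conjugating enzyme with which the anaphase-promoting complex ends mitosis, was at 365 and 384 CPM in gray, 352 and 448 in dark and 194 and 194 in light. Ube2c had a log2 fold change of 0.95 ± 0.06, adjusted p = 6.11e-11 against light. Aspm, a spindle pole protein, was at 109 and 104 CPM in gray, 107 and 112 in dark and 50.4 and 48.8 in light. Aspm had log2 fold changes of 1.10 ± 0.06, adjusted p = 3.06e-11 against light and −0.03 ± 0.06, adjusted p = 0.82 against dark. For Ube2c and Aspm the gray and dark values overlapped.

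The proliferation antigen gene Mki67 and the topoisomerase gene Top2a were higher in gray than in light as well. Mki67 stood at 1637 and 1423 CPM in the gray, 1793 and 1681 in the dark and 1097 and 933 in the light zone gate, with log2 fold changes of 0.59 ± 0.03, adjusted p = 7.45e-12 against light and −0.19 ± 0.03, adjusted p = 0.000283 against dark. Top2a stood at 797 and 718 CPM in gray, 820.3 and 752 in dark and 626 and 538 in light. Top2a had log2 fold changes of 0.38 ± 0.03, adjusted p = 1.76e-08 against light and −0.05 ± 0.03, adjusted p = 0.413 against dark. The gates did not overlap for Mki67 against either neighbour, whereas gray and dark overlapped for Top2a. Their promoters are printed because genes of late cell cycle are known to share 2 elements, the cell cycle genes homology region (CHR, TTTGAA) bound by MuvB complexes and the CCAAT box bound by NF-Y. Both motifs were searched on both strands in the 250 bases before each RefSeq transcription start (GRCm38.p6), and the matches, which do not overlap each other in these promoters, are in capitals; ATTGG and TTCAAA are the reverse strand forms.
Top2a, chr11:99024190-99024439, minus strand: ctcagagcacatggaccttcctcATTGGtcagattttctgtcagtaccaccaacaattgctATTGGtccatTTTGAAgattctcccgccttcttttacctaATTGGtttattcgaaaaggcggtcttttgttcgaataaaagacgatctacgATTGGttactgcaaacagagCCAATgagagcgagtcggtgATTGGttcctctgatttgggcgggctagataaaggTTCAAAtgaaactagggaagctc
Mki67, chr7:135716380-135716629, minus strand: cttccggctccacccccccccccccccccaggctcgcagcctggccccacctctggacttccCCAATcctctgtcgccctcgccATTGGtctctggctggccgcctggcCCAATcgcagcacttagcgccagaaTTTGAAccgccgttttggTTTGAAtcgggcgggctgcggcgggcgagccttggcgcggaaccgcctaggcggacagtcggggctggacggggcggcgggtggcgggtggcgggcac
In Mki67 the CHR letters lie 116 to 111 and 98 to 93 bases before the start, and in Top2a 179 to 174 and 23 to 18 bases before it. Promoters were matched for 46 of the 52 G2/M genes, of which 20 (43.5%) held a CHR match and 35 (76.1%) a CCAAT match, against 4934 (18.3%) and 10133 (37.5%) of 27025 genes. A match describes the letters and shows no binding.

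Other lists of dividing cells behaved alike. The mitotic entry and spindle checkpoint lists share members with the G2/M list, so their counts are no separate evidence. All 16 tubulin and kinesin genes tested were higher in gray than in light (median 0.62), as were 13 of 17 mitotic entry kinases, cyclins and phosphatases (median 0.59), 15 of 17 spindle checkpoint and kinetochore genes (median 0.49) and 10 of 12 replication-dependent histone genes (median 0.36), with 0 lower in each. Histone gene copies are nearly identical and the counts may split reads among them. Against dark, 0 genes were higher in these 4 lists and 1, 5, 4 and 1 were lower. Among the lower ones were Cdc20, which activates the anaphase-promoting complex (198 and 254 CPM in gray, 249.8 and 327 in dark and 120.3 and 133 in light; log2 fold change −0.35 ± 0.05, adjusted p = 3.65e-05 against dark), and Cdc25b, the phosphatase that starts mitosis (182 and 186 CPM in gray, 225 and 219.9 in dark and 113 and 109 in light; log2 fold change −0.28 ± 0.05, adjusted p = 0.000233 against dark). The call of Cdc20 was lost at a mitochondrial limit of 10%. For Cdc20 and Cdc25b, gray lay between the other gates in both libraries, nearer to dark.

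The kinesin gene Cenpe and the kinase genes Aurka and Nek2 had the same order. Cenpe, which aligns chromosomes, was at 365 and 360.2 CPM in gray, 448 and 447 in dark and 227 and 191 in light. Cenpe had a log2 fold change of −0.30 ± 0.05, adjusted p = 0.000105 against dark. Aurka, a kinase of spindle assembly, was at 60.2 and 66.2 CPM in gray, 72.2 and 81.1 in dark and 39.4 and 41.0 in light. Aurka had log2 fold changes of −0.28 ± 0.06, adjusted p = 0.00704 against dark and 0.65 ± 0.07, adjusted p = 4.18e-07 against light, and its call against dark was lost with DESeq2, a gate of 2 UMIs, the phase matching, no matching or a mitochondrial limit of 10%. Nek2, a kinase that splits the centrosomes, was at 68.7 and 74.4 CPM in gray, 83.4 and 98.4 in dark and 37.7 and 38.7 in light. Nek2 had a log2 fold change of 0.90 ± 0.07, adjusted p = 5.13e-09 against light. Among the 10 genes highest over light by the naming rule were also Pif1, a DNA helicase, Sgol2a, which guards cohesion at centromeres, and Troap, a spindle protein, none of which passed the test against dark. Their log2 fold changes were 0.93, 0.88 and 0.85 against light and −0.23, −0.17 and −0.002 against dark. Troap was at 24.1 and 26.8 CPM in gray, 23.8 and 27.2 in dark and 12.9 and 15.4 in light.

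DNA replication genes did not follow the mitotic genes. Of 42 S phase genes, 0 were higher and 10 lower in gray than in dark (median −0.13), and 2 were higher and 12 lower than in light (median −0.09). The gray level lay below both other gates in both libraries for 20 of the 42, against 9.79% of all genes tested. Pcna, the sliding clamp of DNA polymerase, was at 221 and 249.8 CPM in gray, 250.5 and 271 in dark and 260.2 and 279.8 in light, lowest in gray in both libraries. The counts of 10 and 12 fell to 1 and 1 when gates were matched on phase as well, and to 1 and 6 without the cells that carried naive markers. Phase was called from this list and the G2/M list, so a drop under the matching on phase follows from the matching.

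Phase calls of single cells gave the same order as the mitotic lists. The G2/M-like share was 50.1% (95% exact binomial interval 46.9 to 53.3%) and 54.6% (50.7 to 58.5%) of gray zone gate cells, 60.9% (57.7 to 64.0%) and 61.4% (57.6 to 65.2%) of dark and 31.6% (28.7 to 34.6%) and 31.8% (28.2 to 35.5%) of light zone gate cells. These intervals cover counting error only. In both libraries the gray share lay between the others, and only the intervals of gray and dark in library 2 overlapped. Gray minus dark was −8.81 ± 2.83 percentage points and gray minus light 20.7 ± 3.07 (mean ± SD of the 2 libraries, n = 2, no test). The S-like share in gray, 25.9% and 28.0%, was near that of dark, 27.2% and 28.0%, and under that of light, 36.4% and 39.5%. Cells were thinned to 3000 UMIs for these calls; without thinning the G2/M-like shares were 47.5% and 51.4% in gray, 57.8% and 58.1% in dark and 28.6% and 29.3% in light. The phase calls rest on the same G2/M and S lists and are no separate evidence; 32.8% and 30.7% of gray zone gate cells lay within 0.05 of a boundary.

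**Figure D2:**
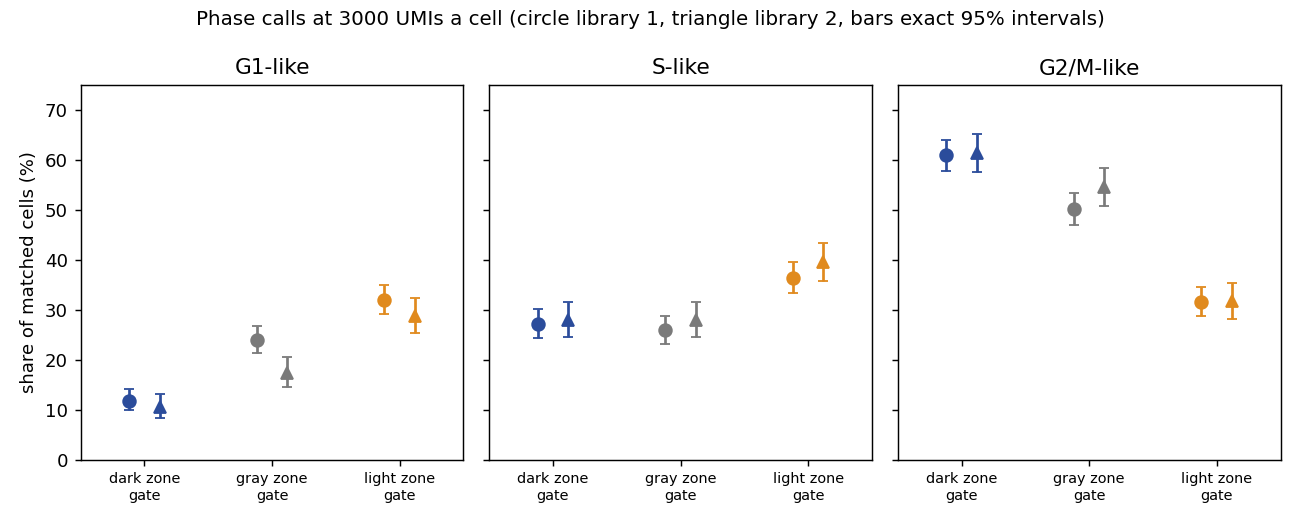
Shares of matched cells (%) called G1-like, S-like and G2/M-like in the dark, gray and light zone gate, with circles for library 1, triangles for library 2 and bars for exact 95% binomial intervals. The G2/M-like share of the gray zone gate (50.1% and 54.6%) lies below the dark and above the light zone gate in both libraries, and its G1-like share (24.0% and 17.4%) lies between theirs.

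Matching on phase and depth together left fewer mitotic differences. Phase was called from the G2/M and S lists themselves, so a drop in the G2/M counts follows from the matching. Of the 52 G2/M genes, 16 were then higher in gray than in light (median 0.19) and 4 lower than in dark (median −0.06). Mki67 was then not called against dark, nor Top2a, Aurka and Pif1 against light. The corresponding counts against light were 4 of 17 for the mitotic entry list, 3 of 16 for tubulins and kinesins, 5 of 17 for the spindle checkpoint list and 2 of 12 for histones.

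Dark zone genes other than mitotic ones also stood between the gates. Of 14 dark zone program genes tested, 13 were higher in gray than in light (median 0.78) and 7 lower than in dark (median −0.33), with 0 in the opposite direction in each. Gcsam, a germinal center adaptor that restrains B cell movement, was at 137 and 122 CPM in gray, 182 and 177 in dark and 81.8 and 68.5 in light. Gcsam had log2 fold changes of −0.47 ± 0.05, adjusted p = 1.81e-06 against dark and 0.78 ± 0.06, adjusted p = 2.13e-09 against light. Otub2, a deubiquitinase, was at 37.3 and 32.9 CPM in gray, 57.8 and 50.9 in dark and 16.5 and 16.8 in light. Otub2 had log2 fold changes of −0.63 ± 0.08, adjusted p = 5.28e-06 against dark and 1.09 ± 0.10, adjusted p = 2.05e-08 against light. Lig4, the ligase of non-homologous DNA end joining, was at 34.5 and 28.9 CPM in gray, 43.4 and 46.9 in dark and 17.6 and 13.1 in light. Lig4 had log2 fold changes of −0.49 ± 0.09, adjusted p = 0.00118 against dark and 1.03 ± 0.12, adjusted p = 6.09e-07 against light. In all 3 genes the gates did not overlap, with gray in the middle. The count against light was again 13 of 14 under the matching on phase, while DESeq2 called 3 in place of 7 lower than in dark and did not call Lig4 there.

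Genes of mutation and DNA repair showed no common direction. Of 18 mutation and DNA repair genes, 0 were higher and 4 lower in gray than in dark (median −0.10), and 4 were higher and 3 lower than in light (median 0.003). Over all genes tested, 5.08% were higher and 3.21% lower than in dark, and 11.1% higher and 13.1% lower than in light. Polh, the error-prone polymerase of somatic hypermutation, and Neil1, a base excision glycosylase, were between the gates. Polh was at 14.2 and 14.5 CPM in gray, 20.5 and 17.1 in dark and 8.54 and 7.10 in light (log2 fold change 0.86 ± 0.14, adjusted p = 8.88e-05 against light), and Neil1 at 217 and 193 CPM in gray, 263 and 237 in dark and 149.8 and 112 in light. Neil1 had a log2 fold change of 0.64 ± 0.06, adjusted p = 1.39e-08 against light. Ung and Apex1, which excise uracil from DNA and cut the strand there, ran the other way, with log2 fold changes of −0.64 ± 0.07, adjusted p = 4.18e-07 and −0.89 ± 0.06, adjusted p = 6.2e-10 against light. Ung was at 38.0 and 55.4 CPM in gray and 40.9 and 51.3 in dark, which overlapped, and at 60.5 and 85.0 in light.

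The 10 genes lowest in gray against dark by the naming rule included 6 outside the dark zone list. Cdc14b, a phosphatase, was at 26.3 and 21.2 CPM in gray, 43.2 and 37.8 in dark and 15.2 and 10.9 in light. Cdc14b had a log2 fold change of −0.76 ± 0.09, adjusted p = 2.92e-06 against dark. Smarca4, the ATPase of the BAF chromatin remodeling complex, was at 529 and 449 CPM in gray, 737 and 695 in dark and 333 and 300.2 in light. Smarca4 had log2 fold changes of −0.55 ± 0.04, adjusted p = 7.52e-10 against dark and 0.63 ± 0.04, adjusted p = 1.39e-10 against light. The others were Tgfbr1, a receptor for TGF-beta, Cdc42ep3, an effector of the Cdc42 GTPase, Abl2, a tyrosine kinase, and Slc41a2, a magnesium transporter, with log2 fold changes of −0.46, −0.45, −0.45 and −0.43. Each of these 6 genes was higher in gray than in light as well. The call against dark was lost for Cdc42ep3 with DESeq2 or a gate of 2 UMIs, and for Tgfbr1 and Slc41a2 with the gate on thinned counts.

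**Figure D3:**
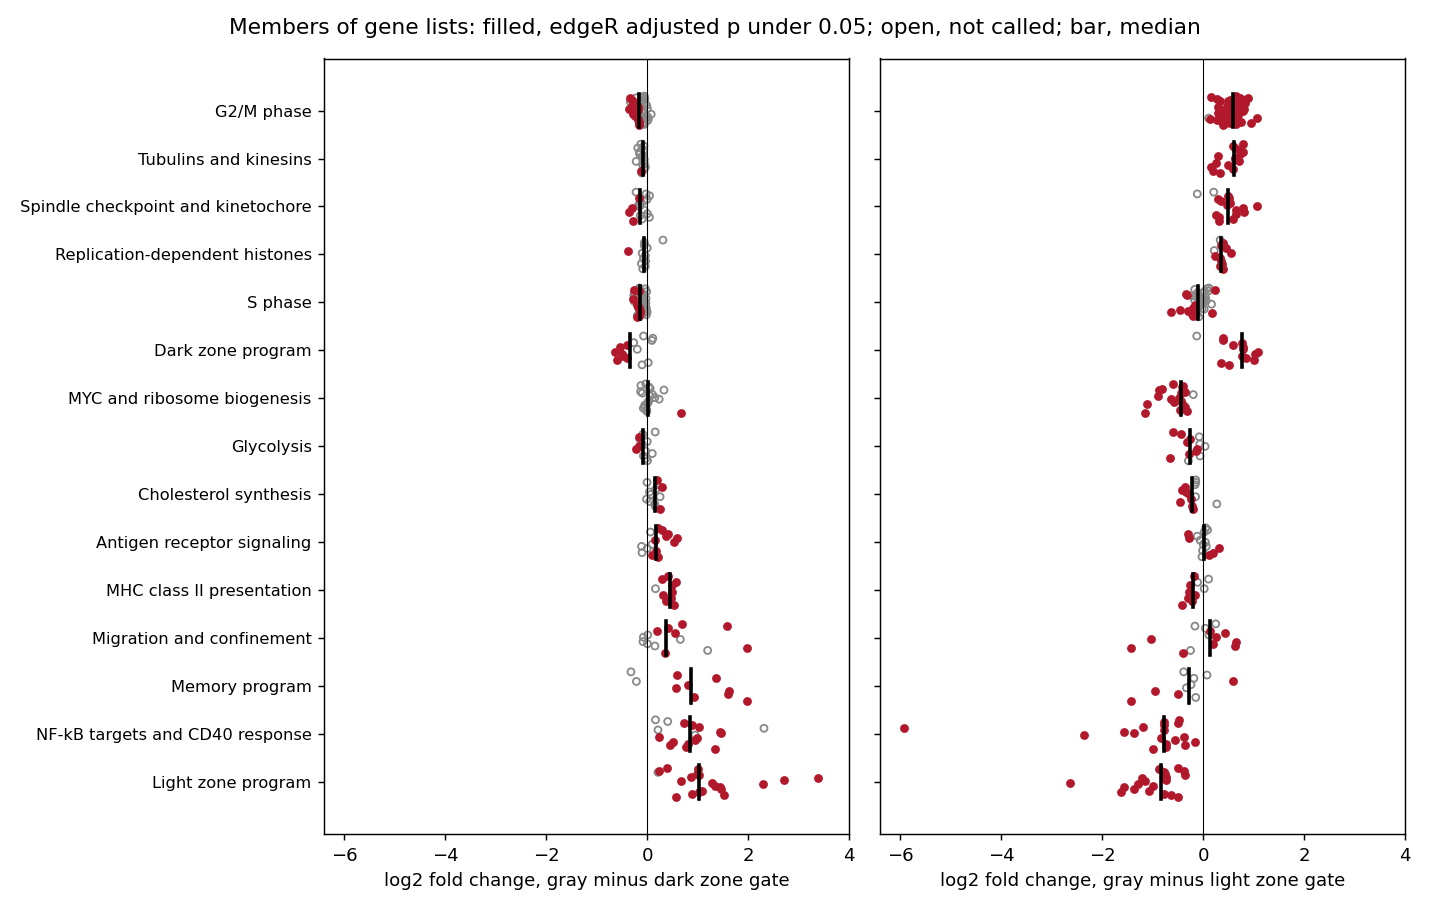
Log2 fold changes of the members of 15 gene lists, gray minus dark zone gate at left and gray minus light zone gate at right. Each point is a gene, filled where the edgeR adjusted p was under 0.05, and bars are list medians. The light zone and NF-kB lists lie to the right of 0 at left and to the left of 0 at right, the G2/M list lies near 0 at left (median −0.15) and at 0.59 at right, and the outermost point at right is Ccl22.

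Light zone genes were raised in gray zone gate cells over the dark zone gate and did not reach the light zone gate. Of 20 light zone program genes, 19 were higher and 0 lower in gray than in dark (median 1.03), and all 20 were lower than in light (median −0.82). For all 20 the gray level lay between the other gates in both libraries, against 30.0% of all genes tested. The gates were cut on the zone genes Cxcr4 and Cd83, and the gene lists were chosen with earlier results of these data known. The order of the light and dark zone lists is thus a description and no separate evidence for the gates. Il4i1, a secreted amino acid oxidase (chr7:44816387-44840809, plus strand), stood at 69.5 and 88.1 CPM in the gray, 14.0 and 18.1 in the dark and 168 and 219 in the light zone gate. Il4i1 had log2 fold changes of 2.30 ± 0.08, adjusted p = 7.76e-15 against dark and −1.29 ± 0.05, adjusted p = 9.61e-14 against light. Fcer2a, the low-affinity IgE receptor CD23, was at 159 and 123 CPM in gray, 49.4 and 49.2 in dark and 231 and 208 in light. Fcer2a had log2 fold changes of 1.53 ± 0.07, adjusted p = 7.38e-13 against dark and −0.64 ± 0.06, adjusted p = 1.72e-08 against light. Il4i1 was 4.92-fold and Fcer2a 2.88-fold above dark, with no overlap between gates. Cd86, a costimulatory ligand for T cells, was at 76.6 and 74.5 CPM in gray, 52.5 and 48.0 in dark and 103 and 112 in light. Cd86 had log2 fold changes of 0.58 ± 0.07, adjusted p = 4.52e-06 against dark and −0.50 ± 0.06, adjusted p = 2.27e-06 against light.

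Ccnd2 and Batf were nearer to the dark than to the light zone gate, though for Ccnd2 the gate on thinned counts put gray above the midpoint of both. Ccnd2, the cyclin that drives entry into the cycle, stood at 6.11 and 10.5 CPM in gray, 3.70 and 2.73 in dark and 39.8 and 62.7 in light. Ccnd2 had log2 fold changes of 1.28 ± 0.23, adjusted p = 0.000631 against dark and −2.63 ± 0.13, adjusted p = 1.6e-12 against light. Its call against dark was lost with DESeq2 (adjusted p = 0.109) and in edgeR with a gate of 2 UMIs (0.184), at a mitochondrial limit of 10% (0.284) and without naive-marked cells (0.0547). Batf, a transcription factor of activated lymphocytes, was at 22.7 and 45.3 CPM in gray, 13.8 and 18.7 in dark and 72.6 and 136 in light. Batf had log2 fold changes of 1.02 ± 0.11, adjusted p = 1.62e-06 against dark and −1.62 ± 0.08, adjusted p = 2.43e-12 against light. In both genes library 2 was higher than library 1 in gray and in light. Irf4, a transcription factor of antigen receptor and CD40 signals, was at 9.07 and 9.44 CPM in gray, 5.50 and 2.85 in dark and 19.6 and 19.4 in light. Irf4 had log2 fold changes of 1.09 ± 0.21, adjusted p = 0.000987 against dark and −1.08 ± 0.15, adjusted p = 8.02e-06 against light, the first of which was not called at a mitochondrial limit of 10%.

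Other genes highest in gray against dark by the naming rule were Hivep3, a zinc finger factor, Rilpl2, a protein of vesicle transport, Plac8 and Pxdc1, with log2 fold changes of 1.47, 1.34, 1.22 and 1.10. Among the 10 lowest against light were also Sub1, a transcription coactivator, and Shisa8, with −1.24 and −1.11.

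NF-kB target genes, which CD40 signals from T cells switch on, showed the same order as the light zone genes, with which the list shares 6 members. Of 18 tested, 13 were higher and 0 lower in gray than in dark (median 0.85, or 0.81 over the 17 genes without Ccl22), and all 18 were lower than in light (median −0.77). Nfkbia, the inhibitor that NF-kB itself induces, stood at 119 and 145 CPM in the gray, 49.1 and 54.0 in the dark and 219.8 and 311 in the light zone gate. Nfkbia had log2 fold changes of 1.35 ± 0.07, adjusted p = 1.14e-11 against dark and −0.99 ± 0.06, adjusted p = 3.06e-11 against light. Cd40 itself was at 29.0 and 39.2 CPM in gray, 18.0 and 18.2 in dark and 51.3 and 65.7 in light. Cd40 had log2 fold changes of 0.88 ± 0.10, adjusted p = 3.05e-06 against dark and −0.78 ± 0.08, adjusted p = 2.32e-07 against light. The subunit gene Nfkb2 was at 23.4 and 34.2 CPM in gray, 13.9 and 18.8 in dark and 41.1 and 53.8 in light. Nfkb2 had log2 fold changes of 0.81 ± 0.10, adjusted p = 8.67e-06 against dark and −0.73 ± 0.08, adjusted p = 5.63e-07 against light. For Nfkbia, Cd40 and Nfkb2 the gates did not overlap and gray was in the middle. The chemokine gene Ccl22 had 1 and 0 counts in gray, 0 and 0 in dark and 64 and 12 in light, a pattern that C1qa and the other complement genes of macrophages shared; the part of macrophage RNA in it was not tested.

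The promoter of Nfkbia is printed because it holds a kB site, the element that NF-kB dimers bind. The 250 bases before the RefSeq start (GRCm38.p6) are given with the match to the NF-kB consensus, searched on both strands, in capitals.
Nfkbia, chr12:55492648-55492897, minus strand: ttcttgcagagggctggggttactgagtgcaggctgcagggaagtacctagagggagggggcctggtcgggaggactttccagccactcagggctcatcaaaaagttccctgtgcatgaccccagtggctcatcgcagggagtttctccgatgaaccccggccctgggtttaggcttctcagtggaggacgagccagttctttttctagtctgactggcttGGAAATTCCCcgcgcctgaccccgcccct
The match lies 29 to 20 bases before the start. Of the 15 genes of the NF-kB list with a promoter, 8 (53.3%) held such a match, against 2225 (8.23%) of 27025 genes.

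Some survival genes were higher in gray than in the dark zone gate. Bcl2a1b and Bcl2a1d, near-identical copies of an NF-kB-induced survival gene whose reads may be split among them, were at 74.0 and 104 and at 40.0 and 58.1 CPM in gray. In dark they were at 28.8 and 34.8 and at 13.8 and 22.3, and in light at 179.9 and 284 and at 109.8 and 183 CPM. Their log2 fold changes were 1.47 ± 0.08, adjusted p = 1.65e-11 and 1.45 ± 0.09, adjusted p = 1.63e-10 against dark, and −1.37 and −1.56 against light. Of 14 survival and death genes, 4 were higher and 0 lower in gray than in dark (median 0.12), and 1 was higher and 7 lower than in light (median −0.16). The 1 higher gene was Bcl2l11, which encodes the death activator BIM, at 36.5 and 30.9 CPM in gray, 42.2 and 29.4 in dark and 26.5 and 22.6 in light. Bcl2l11 had a log2 fold change of 0.46 ± 0.10, adjusted p = 0.000991 against light, a call that was lost with DESeq2 (adjusted p = 0.0612) and at a mitochondrial limit of 10% (edgeR adjusted p = 0.0834). Bax, a pore-forming death effector, was lower, with a log2 fold change of −0.47 ± 0.05, adjusted p = 4.62e-07 against light.

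Early response genes of antigen receptor signaling lay mostly between the gates (7 of 11 in both libraries), with Egr3 also a member of the light zone list. Of 11 immediate early genes, 7 were higher and 0 lower in gray than in dark (median 0.60), and 3 were higher and 7 lower than in light (median −0.49). Egr3, a zinc finger factor induced by the antigen receptor (chr14:70077203-70082614, plus strand), had 84 and 77 counts in gray, 10 and 5 in dark and 203 and 168 in light, or 7.55 and 9.09 CPM in gray, 0.902 and 0.594 in dark and 18.3 and 19.9 in light. Egr3 had log2 fold changes of 3.40 ± 0.28, adjusted p = 1.78e-08 against dark and −1.21 ± 0.14, adjusted p = 6.09e-07 against light. Egr2, its relative, had 39 and 42 counts in gray, 7 and 5 in dark and 49 and 86 in light. Egr2 had log2 fold changes of 2.72 ± 0.38, adjusted p = 3.16e-05 against dark and −0.73 ± 0.22, adjusted p = 0.018 against light. Egr1 stood at 44.3 and 31.5 CPM in gray, 25.4 and 19.1 in dark and 58.9 and 47.8 in light. Egr1 had log2 fold changes of 0.77 ± 0.09, adjusted p = 2.99e-06 against dark and −0.49 ± 0.08, adjusted p = 4.22e-05 against light. With a gate of 2 UMIs or the gate on thinned counts, Egr1 and Egr2 were not called against light; nor were Egr2 and Egr3 at a mitochondrial limit of 10%, or Egr2 with matching on mitochondrial share. The 3 Egr genes were thus lowest in dark, higher in gray and highest in light in both libraries. The 3 genes above light were Fos, Fosb and Jun, at log2 fold changes of 0.21, 0.26 and 0.23, and 0 of them passed under the matching on phase, the matching on mitochondrial share or DESeq2. Without matching on depth all 3 turned below 0.

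Antigen receptor and antigen presentation genes were higher in gray than in dark. Of 15 receptor signaling genes, 10 were higher and 0 lower than in dark (median 0.18), and 3 were higher and 2 lower than in light (median 0.02). Over all genes tested, 11.1% were higher and 13.1% lower than in light. The 10 genes above dark became 4 under the matching on phase, 5 without naive-marked cells and 3 with DESeq2. Cd72, an inhibitory coreceptor of the light zone list, was at 95.6 and 114 CPM in gray, 44.3 and 59.2 in dark and 124 and 143 in light. Cd72 had log2 fold changes of 1.03 ± 0.07, adjusted p = 1.63e-10 against dark and −0.35 ± 0.06, adjusted p = 5.62e-05 against light. Cr2, the complement receptor through which B cells hold opsonized antigen, was at 111 and 92.0 CPM in gray, 62.8 and 73.8 in dark and 132 and 112 in light. Cr2 had log2 fold changes of 0.59 ± 0.08, adjusted p = 3.6e-05 against dark and −0.27 ± 0.08, adjusted p = 0.0106 against light. DESeq2 called Cr2 against neither gate. A gate of 2 UMIs, the gate on thinned counts or a mitochondrial limit of 10% ended the calls of Cd72 and Cr2 against light, as the phase matching did for Cr2. Ptpn6, a phosphatase that damps receptor signals, was at 343 and 357 CPM in gray, 248 and 279 in dark and 421 and 438 in light. Ptpn6 had a log2 fold change of 0.42 ± 0.04, adjusted p = 3.16e-07 against dark.

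Of 10 genes of MHC class II presentation, by which B cells show antigen to T cells, 9 were higher and 0 lower in gray than in dark (median 0.45), and 0 were higher and 7 lower than in light (median −0.20). H2-Aa, a class II alpha chain, stood at 1122 and 1385 CPM in gray, 763 and 960.2 in dark and 1508 and 1813 in light. H2-Aa had log2 fold changes of 0.54 ± 0.03, adjusted p = 1.2e-11 against dark and −0.41 ± 0.03, adjusted p = 5.84e-10 against light. Cd74, the chaperone of class II, was at 9929 and 9837 CPM in gray, 7862 and 7970 in dark and 10987 and 11092 in light. Cd74 had log2 fold changes of 0.32 ± 0.02, adjusted p = 5.23e-11 against dark and −0.16 ± 0.02, adjusted p = 1.14e-06 against light. H2-Oa, which modulates peptide loading, was at 104 and 102 CPM in gray, 67.8 and 70.4 in dark and 106 and 117 in light. H2-Oa had log2 fold changes of 0.58 ± 0.06, adjusted p = 7.08e-07 against dark and −0.11 ± 0.06, adjusted p = 0.191 against light. H2-Aa and Cd74 were in the middle in gray with no overlap, with the call of Cd74 against light lost under the gate on thinned counts, whereas H2-Oa was not detectably different from light.

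Growth genes were lower in gray than in the light zone gate and near their dark zone gate level. Of 20 genes of the MYC and ribosome biogenesis list, 19 were lower and 0 higher in gray than in light (median −0.44), and against dark 1 was higher and 0 lower (median 0.01). The 1 gene above dark was Myc, the growth regulator that marks positive selection, at 14.4 and 25.9 CPM in gray, 11.6 and 12.7 in dark and 31.8 and 57.8 in light. Myc had log2 fold changes of 0.67 ± 0.15, adjusted p = 0.00406 against dark and −1.15 ± 0.11, adjusted p = 6.31e-08 against light. Its call against dark was lost with DESeq2 (adjusted p = 0.0817) and with a gate of 2 UMIs (edgeR adjusted p = 0.09). Srm, which makes spermidine (chr4:148591503-148594993, plus strand), stood at 44.3 and 71.3 CPM in gray, 53.2 and 59.1 in dark and 98.6 and 149.5 in light. Srm had log2 fold changes of −1.11 ± 0.08, adjusted p = 1.15e-09 against light and 0.002 ± 0.09, adjusted p = 0.995 against dark. For Myc, gray and dark were near each other in library 1 and apart in library 2, and for Srm gray and dark overlapped. Gnl3, a nucleolar GTPase, was at 104 and 101 CPM in gray, 96.0 and 101 in dark and 167 and 195 in light (log2 fold change −0.81 ± 0.06, adjusted p = 7.82e-10 against light and 0.06 ± 0.06, adjusted p = 0.664 against dark), and Npm1, the nucleolar chaperone nucleophosmin, at 966 and 1404 CPM in gray, 1032 and 1325 in dark and 1304 and 1933 in light. Npm1 had a log2 fold change of −0.45 ± 0.04, adjusted p = 5.18e-09 against light. Matching on phase left 18 of 20 lower than in light.

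Of 13 glycolysis genes, 0 were higher and 3 lower in gray than in dark (median −0.07), and 0 were higher and 8 lower than in light (median −0.25). Of 13 cholesterol synthesis genes, 3 were higher and 0 lower than in dark (median 0.17), and 0 were higher and 8 lower than in light (median −0.23). Of 20 oxidative phosphorylation genes, 0 were higher and 4 lower than in dark (median −0.08), and 1 was higher and 3 lower than in light (median −0.02). Against light, these oxidative phosphorylation counts were about as over all genes tested or fewer (11.1% higher, 13.1% lower). DESeq2 called 4 in place of 8 glycolysis and 4 in place of 8 cholesterol genes lower than in light, 0 in place of 3 cholesterol genes higher than in dark and 1 in place of 4 oxidative phosphorylation genes lower than in dark. Fabp5, a fatty acid carrier and one of the genes lowest in gray against light, was at 13.0 and 19.5 CPM in gray, 15.7 and 22.0 in dark and 26.4 and 46.8 in light. Fabp5 had log2 fold changes of −1.15 ± 0.10, adjusted p = 2.15e-08 against light and −0.22 ± 0.12, adjusted p = 0.312 against dark.

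Rgs1 and Alcam were higher in gray than in both other gates. Rgs1, which damps chemokine receptor signals (chr1:144242296-144249242, minus strand), stood at 84.1 and 78.8 CPM in the gray, 54.5 and 56.5 in the dark and 64.1 and 56.6 in the light zone gate. Both gray values lay above all 4 others, with log2 fold changes of 0.56 ± 0.07, adjusted p = 4.55e-06 against dark and 0.43 ± 0.07, adjusted p = 3.93e-05 against light. Without matching on depth the difference from light fell to 0.03. Alcam, a cell adhesion molecule, was at 28.2 and 29.2 CPM in gray, 20.5 and 16.3 in dark and 24.0 and 20.1 in light (log2 fold change 0.62 ± 0.11, adjusted p = 0.000362 against dark and 0.36 ± 0.10, adjusted p = 0.0114 against light), also with no overlap. Its difference from light was not called by DESeq2 (adjusted p = 0.237), at a mitochondrial limit of 10% (edgeR adjusted p = 0.0884) or without matching (edgeR adjusted p = 0.208). Rgs2, a relative of Rgs1, was at 198 and 182 CPM in gray, 175 and 158 in dark and 182 and 161 in light (log2 fold change 0.19 ± 0.05, adjusted p = 0.0102 against dark and 0.15 ± 0.05, adjusted p = 0.0236 against light), higher within each library though the ranges of gray and light overlapped. Without matching on depth both differences of Rgs2 turned to the other sign, −0.08 and −0.13, and both calls were lost with DESeq2 and with the phase matching. Against dark the call of Alcam was lost at a mitochondrial limit of 10%, and that of Rgs2 without naive-marked cells or the top doublet scores. Against light Rgs2 was not called with matching on mitochondrial share.

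Rgs1 and Rgs2 belong to a list of 14 migration and confinement genes, of which 7 were higher and 0 lower in gray than in dark (median 0.39), and 6 were higher and 3 lower than in light (median 0.13). The 7 became 4 under the matching on phase and 4 of 12 tested without naive-marked cells. The list shares members with the markers by which the naive-marked cells were picked, so a drop there follows in part from the removal. Cxcr5, the chemokine receptor that draws B cells into follicles, was at 82.1 and 84.4 CPM in gray, 64.0 and 65.8 in dark and 106 and 115 in light. Cxcr5 had log2 fold changes of 0.36 ± 0.06, adjusted p = 0.000385 against dark and −0.41 ± 0.06, adjusted p = 1.1e-05 against light. Gpr183, the oxysterol receptor that leads cells out of the follicle center, was lower than in light at 4.94 and 7.55 against 11.7 and 13.6 CPM. Gpr183 had a log2 fold change of −1.04 ± 0.19, adjusted p = 0.000181 against light. S1pr4, a sphingosine phosphate receptor, ran the other way, at 29.2 and 26.3 CPM in gray, 31.6 and 27.0 in dark and 19.1 and 16.2 in light. S1pr4 had a log2 fold change of 0.65 ± 0.10, adjusted p = 3.04e-05 against light. A mitochondrial limit of 10% ended the call of Cxcr5 against dark and of S1pr4 against light, and the gate on thinned counts that of Gpr183. Gray overlapped with dark for S1pr4 and lay between the gates for Cxcr5.

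Genes of memory B cells were higher in gray than in dark, together with markers of naive and resting B cells. Of 10 memory program genes tested, 8 were higher and 0 lower in gray than in dark (median 0.87), and 1 was higher and 3 lower than in light (median −0.28). Bcl2, the survival gene that resting B cells express, stood at 9.61 and 7.79 CPM in gray, 2.89 and 2.85 in dark and 11.3 and 13.9 in light (log2 fold change 1.61 ± 0.22, adjusted p = 1.9e-05 against dark), and Ccr6, a chemokine receptor of memory and naive B cells, at 3.41 and 3.07 CPM in gray, 1.08 and 0.475 in dark and 8.00 and 9.71 in light. Ccr6 had a log2 fold change of 1.98 ± 0.37, adjusted p = 0.000951 against dark. The naive and resting markers Klf2 and Cd38 were also higher in gray than in dark. Klf2, a quiescence factor, was at 38.3 and 44.9 CPM in gray, 26.4 and 28.5 in dark and 36.0 and 42.9 in light. Klf2 had a log2 fold change of 0.59 ± 0.08, adjusted p = 4.22e-05 against dark. Cd38, a surface enzyme that germinal center B cells lose, was at 15.3 and 16.6 CPM in gray, 7.40 and 9.39 in dark and 15.3 and 20.5 in light. Cd38 had a log2 fold change of 0.94 ± 0.14, adjusted p = 6.22e-05 against dark. For both markers gray did not overlap with dark. When the cells with at least 3 naive markers (3.85% and 4.84% of gray) were left out, 4 of 10 memory genes were higher than in dark, and neither Klf2 nor Cd38 was called; both are among the 6 markers by which those cells were picked. The summed naive markers were 102 and 106 CPM in gray, 65.6 and 73.0 in dark and 90.7 and 101 in light, and their part in the other memory genes was not tested.

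Plasma cell genes showed no common direction. Of 9 tested, 2 were higher and 1 lower in gray than in dark (median 0.04), and 4 were higher and 1 lower than in light (median 0.15). Jchain, the joining chain of secreted antibody, was at 589.9 and 674 CPM in gray, 656 and 799 in dark and 487 and 480.1 in light. Jchain had log2 fold changes of −0.20 ± 0.05, adjusted p = 0.00713 against dark and 0.38 ± 0.05, adjusted p = 2.38e-06 against light. The first was not called with DESeq2, a gate of 2 UMIs or no matching, and the second with the gate on thinned counts. Prdm1, the factor that drives plasma cell fate, had 23 and 17 counts in gray, 14 and 3 in dark and 13 and 16 in light, and passed the test against neither gate.

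The third contrast asked whether gray zone gate cells departed from the midpoint of the dark and light zone gates on the log scale. It called 506 genes (4.75%), 273 higher (2.56%) and 233 lower (2.19%) in gray, and the count was not stable: 254 with a second draw of matched cells, 135 with matching on phase, 152 without the top 6% of doublet scores, 97 without naive-marked cells and 129 by DESeq2. Mitotic genes lay above the midpoint, 30 of 52 G2/M genes with 0 below, and growth genes below it, 14 of 20 with 0 above, with levels near the dark zone gate in both lists. These counts were 0 and 5 under the matching on phase, which by its own rule narrows the G2/M list. Aspm, Cenpf and Ube2c were above it by 0.54, 0.46 and 0.43 on the log2 scale and Rgs1 by 0.49 ± 0.06, adjusted p = 1.98e-05. The lowest were Fabp5, Ccnd2 and Srm at −0.69, −0.68 and −0.55, followed by Ifrd2, Ppa1 and Shisa8 at −0.53, −0.47 and −0.47. Without matching on depth Fabp5, Srm, Ifrd2, Ppa1 and Shisa8 lay above the midpoint, at 0.20, 0.05, 0.04, 0.21 and 0.06, and under the gate on thinned counts Ccnd2 did, at 0.29. Nfkbia did not pass the test against the midpoint (log2 fold change 0.18 ± 0.06, adjusted p = 0.0693), but was called above it by edgeR with the gate on thinned counts (0.52) and with matching on mitochondrial share (0.22). Il4i1, Fcer2a and Egr3 lay above it by 0.50, 0.44 and 1.10. A midpoint on the log scale lies below the plain mean of the dark and light levels in CPM, the more so the further they differ. A value above the midpoint, as for these genes, therefore need not lie above that mean and shows no excess in gray by itself.

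Single cells were read to see whether light zone and dark zone genes were found in the same gray zone gate cells. At 3000 UMIs a cell, gray zone gate cells held a mean of 3.73 and 4.54 UMIs of the light zone list, against 2.02 and 2.22 in dark and 6.11 and 7.48 in light. They held 5.08 and 4.68 UMIs of the dark zone list, against 5.58 and 5.29 in dark and 3.73 and 3.45 in light. Both orders held in both libraries, with gray in the middle. At least 1 UMI of each list was found in 87.5% (85.3 to 89.5%) and 88.2% (85.5 to 90.6%) of gray, 81.6% (79.0 to 84.0%) and 81.5% (78.4 to 84.4%) of dark and 87.9% (85.7 to 89.9%) and 87.4% (84.7 to 89.9%) of light zone gate cells (95% exact binomial intervals). Joint detection was therefore common in all 3 gates, and the intervals of gray and light overlapped in both libraries. Within gray, cells with more light zone UMIs had slightly fewer dark zone UMIs (Spearman rho −0.14 over 962 and −0.21 over 661 cells of a common depth, a description only). Over as many cells of the other gates rho was −0.23 and −0.26 in light and 0.0175 and −0.0294 in dark.

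The order of light zone genes held inside the G2/M-like cells. There the mean light zone list level was 3.20 and 4.17 UMIs a cell in gray, 2.0 and 2.17 in dark and 4.92 and 5.82 in light, and the dark zone list level 5.10 and 4.56 in gray, 5.48 and 5.25 in dark and 3.75 and 3.30 in light. The median G2/M list level over all matched cells was 29 and 35 UMIs in gray, 36 and 38 in dark and 19 and 19 in light.

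**Figure D4:**
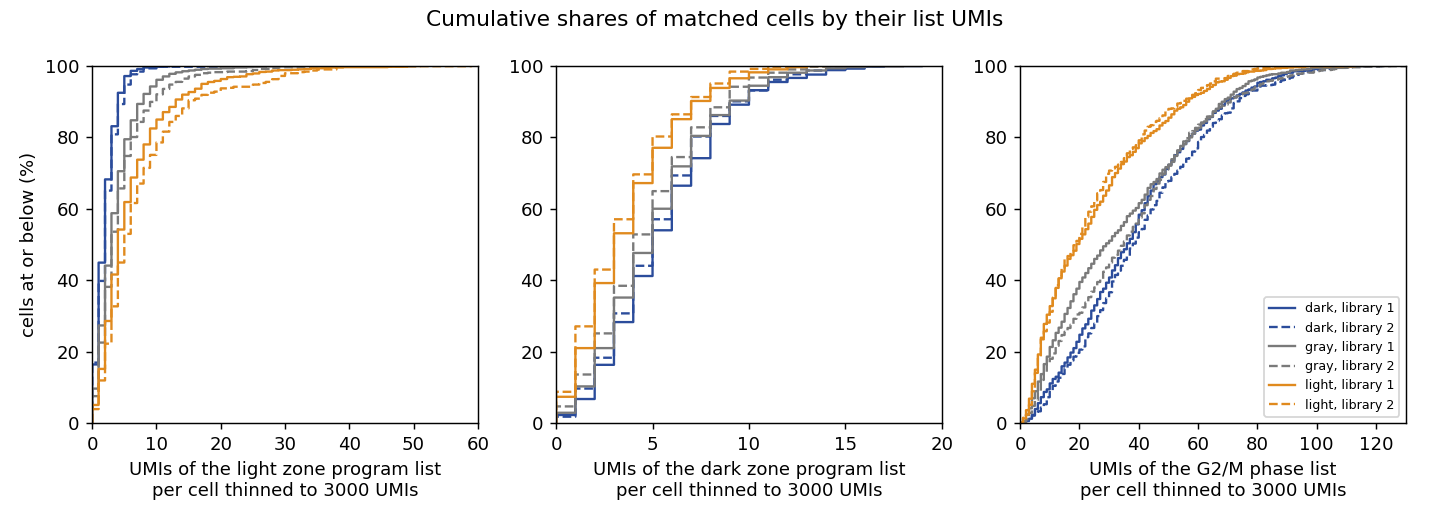
Cumulative share of matched cells (%) by their UMIs of the light zone, dark zone and G2/M lists after thinning to 3000 UMIs a cell, for the dark (blue), gray (gray) and light (orange) zone gate, with solid lines for library 1 and dashed lines for library 2. Gray curves lie between the others for the light zone list, and nearer to the dark zone gate for the G2/M list (medians 29 and 35 in gray, 36 and 38 in dark, 19 and 19 in light).

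The share of IgG cells was lower in the gray than in the dark zone gate. Of cells assigned to IgG or IgM, the IgG share was 49.7% (46.2 to 53.3%) and 48.9% (44.7 to 53.2%) in gray, 59.9% (56.3 to 63.5%) and 57.0% (52.6 to 61.3%) in dark and 54.5% (51.0 to 58.0%) and 53.0% (48.7 to 57.2%) in light. Gray minus dark was −9.14 ± 1.51 percentage points and gray minus light −4.42 ± 0.51 (mean ± SD, n = 2 libraries, no test), below 0 in both libraries in each case. At a mitochondrial limit of 10% the difference from light was 2.04 points in library 1 and −14.9 in library 2. With the gate set on thinned counts, gray minus light was −7.58 points in library 1 and 1.05 in library 2, and gray minus dark −11.9 and −0.323. The intervals of gray and light overlap in both libraries, and those of gray and dark overlap in library 2. A cell was assigned with at least 5 constant region UMIs of which at least 80% were of 1 class, and 16.3% and 15.1% of gray zone gate cells with enough UMIs were mixed. The mixed share is given for gray only and is no comparison between gates.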

How the data were processed

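UMI counts per gene and barcode were deposited as 10x matrices, made with Cell Ranger 3.0.2 per the file headers and the genome build mm10 per the submitters' processing notes; the annotation and cell calling settings are not given in the sources used here. The members and gene lists were chosen with earlier results of these data known. Cells were kept and gated by the rule in the opening, gates were matched per library in bins of 0.1 log2 UMIs, and counts were summed per gate and library. The 6 sums were tested with edgeR 4.0.16 (R 4.3.3; low counts filtered, TMM scaling, quasi-likelihood test, library as block, Benjamini-Hochberg adjustment over 10650 genes), with DESeq2 1.42.0 as an alternative. The block was used because gates of 1 library were sequenced together; deviations of gates of the same library correlated at 0.794, 0.821 and 0.747 across 5527 genes. Phases were scored with scanpy 1.11.5 (Python 3.11.15). Scrublet called 0 and 1 doublets (0% and 0.0310%), so it did not work here and no cell was removed; an alternative left out the top 6% of its scores. On simulated counts the fit recovered 89, 89 and 97 of 100 genes changed by 0.5 log2 in the comparisons with dark, light and their midpoint, and 100 of 100 at 1 log2. It made 8, 8 and 4 false calls among the unchanged genes of the 10544 tested. The simulation put no difference of gene levels between libraries and drew counts at the fitted trend of the spread. Only genes with an expected count of at least 100 were changed, so it does not give the accuracy of the calls made here. Named genes were the 10 highest and 10 lowest per comparison with an adjusted p under 0.05, the same sign in both libraries and a mean of at least 20 CPM, without immunoglobulin, mitochondrial or unnamed genes, and members of the gene lists. The list genes P2ry8 and Sgo2a were not found under these symbols, and 10 others were too low to test; a few list members are not reported by name here. Promoters and coordinates came from RefSeq (GRCm38.p6) and GENCODE M21 (GRCm38).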

Additional observations from a re-analysis of the deposited data

How the results depend on the processing

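The medians of the G2/M, light zone, NF-kB and MHC class II lists against both gates, and of the growth genes against light, kept their sign with DESeq2, a gate of 2 UMIs, matching on phase or mitochondrial share, and without naive-marked cells or the top doublet scores. Counts of calls moved. List medians are not given here for no matching, the gate on thinned counts, the mitochondrial limit of 10% or the second draw. No matching, the thinned gate and the 10% limit hold most sign changes of named genes given below. Against dark, the 883 genes became 282 with DESeq2, 474 with matching on phase, 300 at a mitochondrial limit of 10%, 2654 with no matching on depth and 502 without naive-marked cells. Against light, the 2572 became 994 with DESeq2, 1490 with matching on mitochondrial share and 1212 with matching on phase. Against the midpoint, the 506 became 129 with DESeq2, 888 with the gate on thinned counts, 191 with matching on mitochondrial share, 135 with matching on phase, 256 at the 10% limit, 306 with no filter on low counts, 1162 with no matching, 254 with a second draw, 97 without naive-marked cells and 152 without the top doublet scores. The cause of these shifts was not tested. The share of calls that were higher in gray at the midpoint moved from 54.0% to 77.0% with matching on mitochondrial share, 73.7% with no matching, 40.4% with the thinned gate, 67.0% without naive-marked cells and 42.6% with DESeq2.

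Without the replicate block, which drops the pairing of gates within a library, edgeR called 9, 26 and 0 genes against dark, light and the midpoint, with 755, 1591 and 397 at an unadjusted p under 0.05, and DESeq2 with the block called 129 at the midpoint; 111 of the 137 gene values named lost their call. Leaving out a library left 1 sum a gate and hence values with no test.

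The G2/M-like share of gray minus dark was −12.9 points with the thinned gate and −4.40 with no matching, and −10.8 to −6.81 by library; gray minus light was 13.2, 25.8 and, with matching on mitochondrial share, 17.0, and 18.5 to 22.8 by library. The IgG share of gray minus dark was −10.8 with a second draw, −12.0 at the 10% limit, −15.4 with a gate of 2 UMIs, −6.11 with the thinned gate (−11.9 and −0.323) and −11.2 without the top doublet scores, and −10.2 to −8.07 by library. Gray minus light was −6.44 at the 10% limit, −6.02 with a gate of 2 UMIs, −3.26 with the thinned gate (−7.58 and 1.05 in libraries 1 and 2), −4.99 with matching on phase and −5.79 without the top doublet scores, and −4.78 to −4.06 by library.

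Of 2277 alternative values of the named genes, 1983 counted as the same, 253 lost the call, 20 gained it, 18 changed sign and 3 moved. A refit counted as the same with call and sign kept, or with the gene called in neither fit, whatever its sign. Values without library 1 or 2 hold no call (136 and 135 the same, 1 and 2 moved). They counted as the same within about the spread of the libraries, a limit that nearly any value meets. With no matching the sign changes were Fabp5 (0.741) and Rgs2 (−0.0774) against dark, Fos (−0.0741), Fosb (−0.0749), Jun (−0.12) and Rgs2 (−0.13) against light, and Fabp5 (0.20), Ifrd2 (0.0403), Pno1 (0.11), Ppa1 (0.21), Shisa8 (0.0646) and Srm (0.049) at the midpoint. At the 10% limit they were Klf2 (−0.0879) against dark, Jun (−0.11) against light and Plac8 (−0.20) at the midpoint, without naive-marked cells Klf2 (−0.0148) against dark, and with the thinned gate Ccnd2 (0.29) and Troap (−0.27) at the midpoint. Matching on mitochondrial share was chosen after seeing the data. Depth limits the gate itself, since a gate gene at 0 UMIs may have been missed.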
